A study of Sorghum bicolor with 14 samples.

Results

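Tannin1 (Sobic.004G280800) and Tannin2 (Sobic.002G076600) are the pair of grain tannin regulators followed here through grain development of Sorghum bicolor cultivar M35-1. They were chosen by gene ID and not by a rule on their values, though earlier results of these data were known. Both of the 2 IDs are among the 31337 genes of the deposited table. The table itself carries no gene names, so the assignment of the names Tannin1 and Tannin2 to these IDs rests on general knowledge of the sorghum genome. The plants were field-grown, untreated as far as the labels say, and all of one cultivar. The 14 libraries come from pistils 1 to 2 days before pollination (1-2 DBP, 3 libraries), from material 0 to 2 days after pollination (0-2 DAP, 3 libraries), and from seed at 10 DAP (3 libraries), 20 DAP (3 libraries) and 30 DAP (2 libraries). The 0-2 DAP libraries are named pistil in one label and seed in another. The labels do not state the tannin genotype of the cultivar, the tannin content of its grain, or whether separate plants gave the libraries of a stage.

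Condensed tannins, or proanthocyanidins, are flavonoid polymers that some sorghums deposit in the testa, the pigmented layer between the pericarp and the endosperm, where they deter birds and lower the digestibility of the grain. Tannin1 encodes a WD40-repeat protein and Tannin2 a basic helix-loop-helix (bHLH) transcription factor. Proteins of these kinds join with a MYB factor in a complex that switches on the late flavonoid enzymes, the WD40 protein as the scaffold and the bHLH and MYB proteins as the parts that meet the DNA. In Arabidopsis the corresponding pair is TTG1 and TT8, of which TTG1 also acts in epidermal hairs outside the seed coat. In sorghum a functional allele of both genes is needed for a tannin-containing grain.

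The values are in TPM, the share of each gene in all transcripts: reads divided by gene length and scaled so that each column summed to 1000000. The table holds 1 value per gene and stage, so no difference below has a replicate error, an SD or a test, and neighbouring levels cannot be set against any spread. The libraries are bulk tissue, so fewer cells of a type and less RNA per cell cannot be told apart. The 100 genes with the highest mean TPM (the top 100) together held 9.86%, 11.1%, 34.8%, 52.4% and 45.2% of all TPM in stage order, and the TPM of every other gene is lowered to the extent that these take a larger share. The 3 IDs used as endosperm storage protein markers, assigned from general knowledge as kafirins and not by the files, were listed at no more than 0.140 TPM up to 0-2 DAP, between 10121 and 67112 TPM at 10 and 20 DAP, and between 8.06 and 36.6 TPM at 30 DAP. These storage protein levels move with the stages, and their part in the levels below was not tested.

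Tannin1, the WD40 scaffold, was listed above 5 TPM at every stage. In stage order, from the unpollinated pistil to the 30 DAP seed, its levels were 8.40, 11.7, 9.74, 7.53 and 5.45 TPM. From the highest to the lowest the stages stood in the order 0-2 DAP, 10 DAP, 1-2 DBP, 20 DAP and 30 DAP, and the highest value was 2.14 times the lowest. Across the 14004 genes that reached 1 TPM in all 5 stages, the median of that ratio was 5.56, and 979 genes, or 6.99%, had a smaller one. As deposited, Tannin1 therefore sat near the steady end of the genes used throughout.

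Tannin2, the bHLH partner, was listed above 0 in the first 3 stages only. Its levels in stage order were 2.79, 7.67 and 2.80 TPM, and it was then listed at 0 at both 20 DAP and 30 DAP. As deposited, the levels on either side of 0-2 DAP were nearly equal. They were 1.48 and 2.72 under median-ratio factors, 1.88 and 2.83 under quantile normalization, and 3.09 and 4.30 with the top 100 removed, so their near equality rests on the deposited scaling. The deposited 0-2 DAP level was 2.75 times that of the unpollinated pistil. Both genes thus had their highest deposited value at 0-2 DAP, a stage at which 8768 of the 24404 genes that reached 1 TPM somewhere, or 35.9%, also had theirs.

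**Figure D1:**
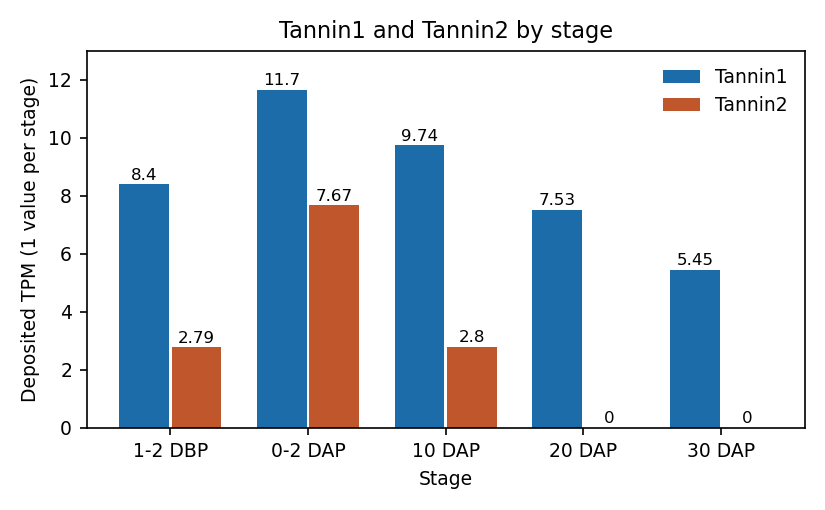
Deposited TPM (y axis, linear from 0) of Tannin1 and Tannin2 at each of the 5 stages (x axis), 1 bar per gene and stage with no error bars because the table has 1 value per stage. Tannin1 lies between 5.45 and 11.7 TPM throughout, while Tannin2 reaches 7.67 TPM at 0-2 DAP and is listed at 0 at 20 and 30 DAP.

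Because TPM is per length, both genes can be set against each other within a stage, and their ratio cannot be moved by anything that scales a whole column. The level of Tannin1 was 3.01 times that of Tannin2 at 1-2 DBP, 1.52 times at 0-2 DAP and 3.47 times at 10 DAP. On the log2 scale the ratios were 1.59, 0.60 and 1.80. The pair was therefore closest in level just after pollination, where Tannin2 was high, and farther apart before and after. At 20 and 30 DAP Tannin1 was still at 7.53 and 5.45 TPM with Tannin2 listed at 0, and no ratio is given there. With 1 TPM added to both genes, 0-2 DAP again had the lowest log2 ratio, at 0.55.

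Around pollination, the comparison of 0-2 DAP with 1-2 DBP asks what differs once the pistil has been pollinated. Tannin2 was higher at 0-2 DAP by 4.88 TPM, a difference of 1.20 on the log2(TPM + 1) scale, on which values at least 1 apart are counted here as past 2-fold. Of the 24404 genes compared, 2152 were past 2-fold in that direction, 8.82% of them, and 1587, or 6.50%, in the other. The median difference of all genes was 0.02, and 93.3% of the genes had a lower difference than Tannin2. Tannin2 was also past 2-fold after division by median-ratio size factors, at 1.03, and with the top 100 removed, at 1.23. It was not past 2-fold under quantile normalization, at 0.97, or with a pseudocount of 5, at 0.70. Tannin1 was higher at 0-2 DAP by 3.26 TPM, a log2 difference of 0.43 that stayed within 2-fold under every pseudocount and scaling tried, between 0.31 and 0.47.

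Between 0-2 DAP and 10 DAP, as the young seed forms, Tannin2 was lower by 4.87 TPM, with a log2 difference of -1.19. The same direction held for 9697 genes past 2-fold, 39.7% of those compared, the opposite one for 2678, or 11.0%, and the median difference of all genes was -0.72, so the deposited difference of Tannin2 lay 0.47 below the middle of the genes. Under median-ratio factors, where the median of all genes was -0.02, Tannin2 differed by -0.45, and under quantile normalization by -0.56. It was within 2-fold under both, and also with the top 100 removed, at -0.86, and with a pseudocount of 5, at -0.70. The split over all genes changed with the scaling too, from 2678 higher and 9697 lower as deposited to 4816 higher and 3756 lower under median-ratio factors, 4373 and 4823 under quantile normalization, and 3779 and 6845 with the top 100 removed. Tannin1 had a log2 difference of -0.24 as deposited, but of 0.54 under median-ratio factors, 0.52 under quantile normalization and 0.18 with the top 100 removed. Relative to the median of all genes Tannin1 was 0.48 higher as deposited and between 0.54 and 0.65 higher under these 3 scalings. The accession numbers of the samples fall into separate blocks on either side of this step, so that a technical gap, if there is any, cannot be told apart from the stage.

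Between 10 DAP and 20 DAP, in the filling grain, Tannin2 went from 2.80 TPM to a listed 0. This counts as past 2-fold on the log2(TPM + 1) scale, where 4586 genes, or 18.8%, were lower and 1033, or 4.23%, higher, and 4.20% of the genes had a lower difference than Tannin2. Tannin2 was past 2-fold under all 3 scalings and with a pseudocount of 0.1, but not with a pseudocount of 5. No fold is given against a listed 0. Tannin1 was lower by 2.21 TPM, with a log2 difference of -0.33 against a median of -0.47 for all genes. Its difference was 0.22 under median-ratio factors, 0.23 under quantile normalization and 0.08 with the top 100 removed. The genes past 2-fold numbered 1033 higher and 4586 lower as deposited, 1955 and 2144 under median-ratio factors, 1973 and 2207 under quantile normalization, and 1775 and 2937 with the top 100 removed.

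Between 20 DAP and 30 DAP Tannin2 was listed at 0 in both columns and no difference can be given. Tannin1 was lower at 30 DAP by 2.07 TPM, with a log2 difference of -0.40 that was close to the median of all genes, -0.42. The sign of its own difference turned under 2 scalings, to 0.23 under median-ratio factors and 0.26 under quantile normalization, and was -0.62 with the top 100 removed. Relative to that median it was 0.02 higher as deposited, 0.29 higher under median-ratio factors, 0.24 higher under quantile normalization and 0.06 higher with the top 100 removed. At this step 6890 genes, or 28.2%, were past 2-fold lower and 2204, or 9.03%, higher as deposited. Under median-ratio factors 4977 were lower and 4569 higher, under quantile normalization 4120 and 4201, and with the top 100 removed 9440 and 2011.

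The ends of the series gave the value for Tannin1 that depended most on the scaling. At 30 DAP it was lower than in the unpollinated pistil by 2.94 TPM, with a log2 difference of -0.54. The median difference of all genes was -1.62, 15908 genes or 65.2% were past 2-fold lower and 1839 or 7.54% higher, and 73.9% of the genes had a lower difference than Tannin1. Under median-ratio factors Tannin1 was past 2-fold higher at 30 DAP, at 1.39, and under quantile normalization at 1.37, while with the top 100 removed the difference was 0.09. Relative to the median of all genes it was 1.08 higher as deposited, 1.47 higher under median-ratio factors, 1.48 higher under quantile normalization and 1.28 higher with the top 100 removed. The sign of its own difference was therefore set by the scaling. Its position above the middle of the genes held under all 4, but that agreement is no separate support here or at the other steps. A factor for a whole column moves a gene listed above 0 and the median in the same direction, though not equally on the log2(TPM + 1) scale. Quantile normalization keeps the order of genes within a column. Over all genes, 1839 were higher and 15908 lower as deposited, 6007 and 6355 under median-ratio factors, 5261 and 6224 under quantile normalization, and 2686 and 13389 with the top 100 removed. Tannin2, at 2.79 TPM in the unpollinated pistil, was listed at 0 at 30 DAP. As deposited, 42.3% of the genes had a lower difference than Tannin2 at this comparison, so its deposited position was near the middle. Tannin2 was past 2-fold lower as deposited and under each other scaling, though not with a pseudocount of 5. The median difference of all genes was -0.08 under median-ratio factors, -0.11 under quantile normalization and -1.20 with the top 100 removed. The position of Tannin2 among the genes under these scalings was not computed.

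The course of Tannin1 over the 5 stages therefore differed between scalings, and that of Tannin2 did not in its order. With median-ratio factors the levels of Tannin1 were 4.46, 6.17, 9.43, 11.2 and 13.3 from 1-2 DBP to 30 DAP, each stage above the one before. With quantile normalization they were 5.36, 7.19, 10.7, 12.7 and 15.5, in the same order. With the top 100 removed they were 9.31, 13.1, 14.9, 15.8 and 9.95, highest at 20 DAP. The highest level was 2.97 times the lowest under median-ratio factors, against a median of 3.19 for the genes used throughout, so the steadiness of Tannin1 as deposited was not seen under that scaling. Under quantile normalization the ratio was 2.88 against a median of 2.91, and with the top 100 removed it was 1.70 against 4.02. Tannin2 had its highest level at 0-2 DAP under each of these scalings, at 4.06, 4.65 and 8.62. These courses, the ends of the series and the positions below all cross the step from 0-2 DAP to 10 DAP. A technical gap between the sample blocks at that step, if there is any, cannot be told apart from the stage in them either.

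**Figure D2:**
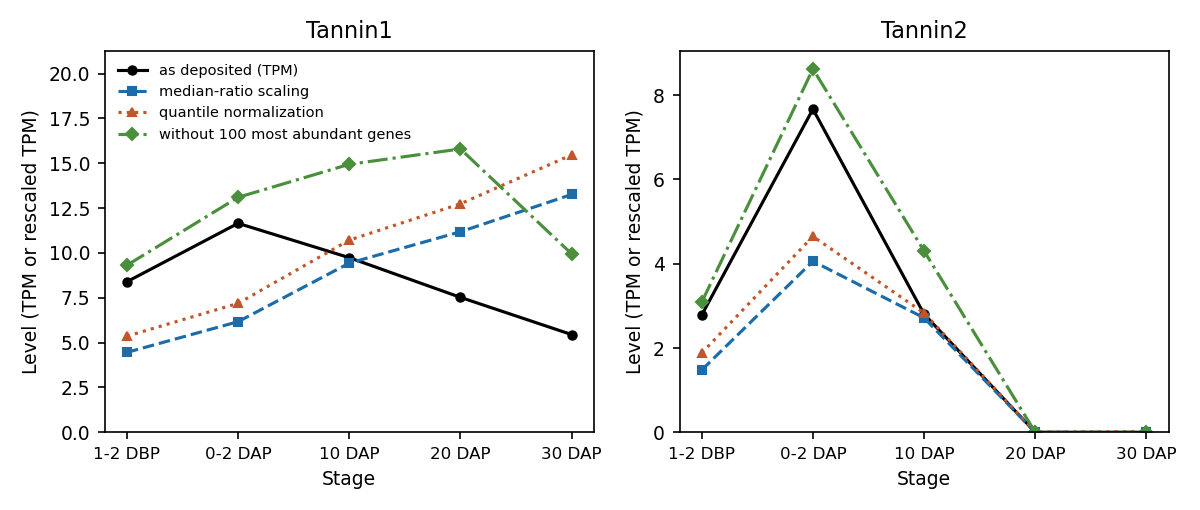
Level of Tannin1 (left) and Tannin2 (right) at the 5 stages (x axis) as deposited in TPM and after 3 rescalings of the same values (y axis, linear from 0), 1 point per stage with no error bars. The lines of Tannin1 run in different directions after 0-2 DAP, from 11.7 to 5.45 as deposited and from 6.17 to 13.3 under median-ratio factors, while all 4 lines of Tannin2 have their highest point at 0-2 DAP.

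The position of each gene among the 31337 genes of a column does not depend on how the column is scaled. Tannin1 lay above 53.1%, 57.9%, 65.2%, 68.5% and 72.4% of the genes in stage order. Its deposited level was lower at 30 DAP than in the pistil while its position was higher, since the median over all genes was 6.72 TPM at 1-2 DBP and 1.07 TPM at 30 DAP. Tannin1 was 1.25 times that median at 1-2 DBP and 5.12 times at 30 DAP. Part of this follows from which genes are counted, because the number of genes listed at 0 was 1902 at 1-2 DBP and 6744 at 30 DAP. Counting only genes that reached 1 TPM in the same column, Tannin1 lay above 30.5%, 39.4%, 47.4%, 48.5% and 45.5% in stage order, higher in each of the 4 later stages than in the pistil but not higher at 30 DAP than at 20 DAP. Tannin2 lay above 40.2% of all genes at 1-2 DBP, 51.0% at 0-2 DAP and 44.6% at 10 DAP. Counted in that way it lay above 11.5%, 29.5% and 16.3% at these stages, with 0-2 DAP again the highest.

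**Figure D3:**
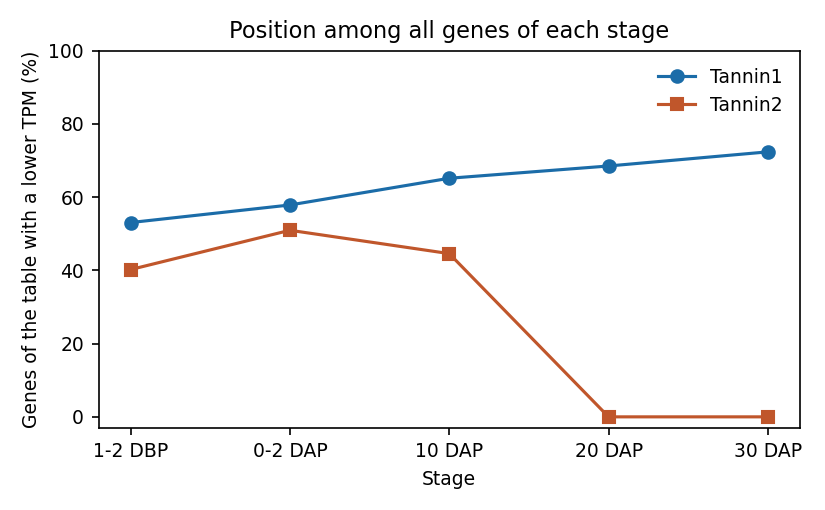
Percentage of the 31337 genes with a lower TPM than Tannin1 or Tannin2 in the same column (y axis) at the 5 stages (x axis), 1 point per gene and stage with no error bars. Tannin1 goes from 53.1% to 72.4%, and Tannin2 is highest at 0-2 DAP, at 51.0%, and drawn at 0 at 20 and 30 DAP, where it is listed at 0.

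To be listed at 0 at both 20 and 30 DAP, as Tannin2 was, was uncommon among genes near its 10 DAP level. This comparison was not planned in advance, and the genes were matched on that 1 stage only. At 10 DAP 5570 genes lay within 2-fold of Tannin2, between 1.40 and 5.61 TPM, with Tannin2 itself counted here and in the counts that follow. Of these, 29, or 0.521%, were listed at 0 at 20 DAP, 464, or 8.33%, at 30 DAP, and 21, or 0.377%, at both. Their median was 1.82 TPM at 20 DAP and 0.911 TPM at 30 DAP. Of the 18554 genes with at least 1 TPM in each of the first 3 stages, 11 were listed at 0 at both 20 and 30 DAP, Tannin2 among them. Both of these gene sets required expression before 20 DAP. Without that requirement a listed 0 in both late columns was more common, with 3136 of the 31337 genes, or 10.0%. Of the 11, 4 had their highest value at 0-2 DAP, Tannin2 among them. That is 36.4%, near the 35.9% of all genes compared that were highest at that stage. The other 3, named after their values were seen, were Sobic.004G195400 with 228 TPM at 0-2 DAP, Sobic.005G154000 with 53.8 TPM and Sobic.003G443900 with 14.8 TPM, so Tannin2 was the lowest of the 4 at that stage. The other 7 were highest at 1-2 DBP.

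What level of Tannin2 a listed 0 stands for at those stages is not known, because the read counts behind the TPM values are not in the table. The lowest value above 0 in these columns was 0.000283 and 0.000696 TPM, and 5% of the values above 0 were below 0.0326 and 0.0328 TPM. Of the 5039 genes with at least 20 TPM in each of the first 3 stages, 0 were listed at 0 at 20 DAP and 22 at 30 DAP. A listed 0 at 30 DAP was therefore also given to genes that were abundant earlier.

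The genes whose courses were most like each member were found by the root mean square difference between log2(TPM + 1) courses over the 5 stages, each centred on its own mean, among genes of similar mean level. Tannin1 had many close companions. Of 9533 genes compared, 175, or 1.84%, lay within 0.25 of it, and the nearest were Sobic.009G255200 at 0.0896, Sobic.008G038400 at 0.0916 and Sobic.010G141600 at 0.114. Sobic.009G255200 had 3.37, 5.61, 4.83, 2.98 and 2.32 TPM in stage order. Sobic.008G038400 was between 3.42 and 6.75 TPM and Sobic.010G141600 between 12.1 and 20.1 TPM, both highest at 0-2 DAP and lowest at 30 DAP as Tannin1 was.

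Tannin2 had fewer close companions, 17 of 8739 genes, or 0.195%, within the same 0.25. The measure is not scaled to the size of a course's changes, so these counts do not compare likeness of shape. Pearson's r with the member was between 0.994 and 0.996 for the 3 nearest to Tannin2, and between 0.942 and 0.972 for the 3 nearest to Tannin1. These genes were picked for closeness over the same stages, so a high r is built in. It does not tell which member has companions closer in shape. The nearest to Tannin2 were Sobic.009G250700 at 0.126, Sobic.006G044100 at 0.129 and Sobic.007G130900 at 0.142. Sobic.009G250700 had 3.26, 8.54, 2.61, 0.246 and 0.119 TPM in stage order. Sobic.006G044100 had 11.8 TPM at 0-2 DAP, then 0.400 TPM and 0.704 TPM in the last pair of stages. Sobic.007G130900 had 0.259 TPM and then 0.0186 TPM at the last pair of stages. All 3 were highest at 0-2 DAP and below 1 TPM at 20 and 30 DAP, but none of them was listed at 0 there. These lists depend on the measure, since none of the 3 IDs of either member was among its 3 nearest when likeness was taken as Pearson's correlation. The files give no name to these 6 IDs.

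**Figure D4:**
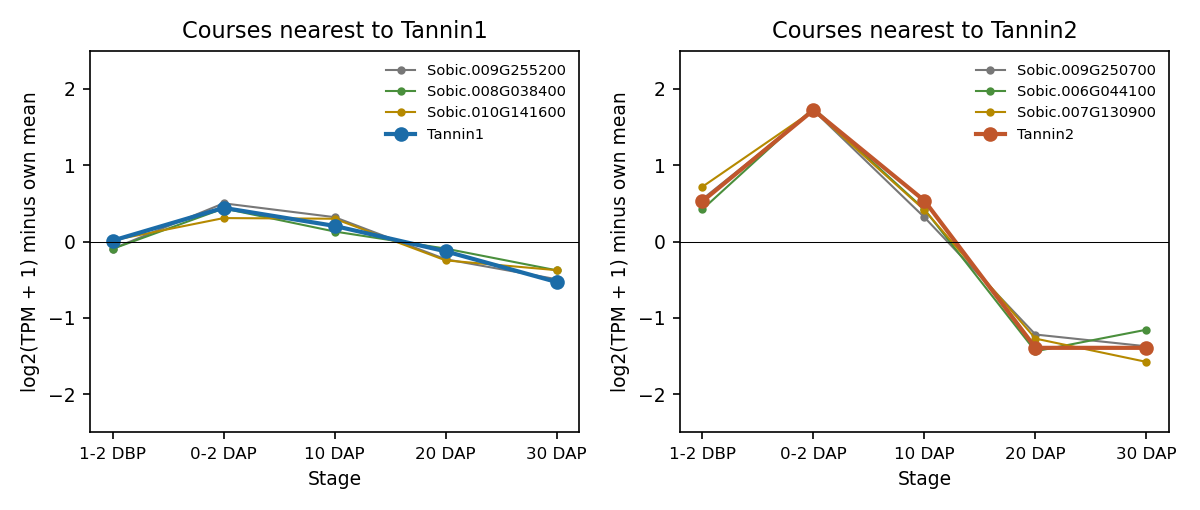
Courses of log2(TPM + 1) minus each gene's own mean (y axis) over the 5 stages (x axis) for Tannin1 (left) and Tannin2 (right), each with its 3 nearest genes, 1 point per gene and stage with no error bars. The nearest genes of Tannin1 lie within a root mean square difference of 0.114 from it, and those of Tannin2 within 0.142, on axes of equal range that show the smaller excursion of Tannin1.

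The genes beside each member in ID order were also followed, since the table gives no coordinates. Of the 10 IDs around Tannin1, 5 on each side, 8 reached 1 TPM, with highest values from 8.34 to 134 TPM, and 1 of the 8 was highest at 0-2 DAP, Sobic.004G281000, at 133.9 TPM in the unpollinated pistil and 134.3 TPM at 0-2 DAP. Over all genes compared, 35.9% were highest at that stage. From 1-2 DBP to 0-2 DAP, 0 of these 8 were past 2-fold higher and 3 were past 2-fold lower, beside 8.82% and 6.50% of all genes. With 8 genes these counts are too small to read as a trait of the neighbourhood. Of the 8, 1 was listed at 0 at 20 DAP and none at 30 DAP. Over all 31337 genes, 3677 and 6744 were listed at 0 at these stages, but that total includes genes that never reached 1 TPM. The ID before Tannin1, Sobic.004G280700, was between 9.94 and 23.9 TPM in all stages.

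Of the 10 IDs around Tannin2, 8 reached 1 TPM, with highest values from 9.43 to 364 TPM. From 1-2 DBP to 0-2 DAP, 0 of the 8 were past 2-fold higher and 1 was past 2-fold lower, counts too small to set apart from the 8.82% and 6.50% of all genes compared. The 1 of them that was highest at 0-2 DAP was Sobic.002G076400, at 28.3 TPM in the unpollinated pistil and 50.2 TPM at 0-2 DAP, or 0.81 apart on the log2 scale. None of the 8 was listed at 0 at 20 or 30 DAP. Over all 31337 genes, those that never reached 1 TPM included, 3677 and 6744 were listed at 0 at these stages. As deposited, all 8 were past 2-fold lower at 30 DAP than at 1-2 DBP, as were 15908 genes, or 65.2% of all compared. That number was 6355 under median-ratio factors, 6224 under quantile normalization and 13389 with the top 100 removed. The neighbours were not counted under these scalings, so their shared direction is given for the deposited values only. Sobic.002G077000 was at 0.0597 TPM at 30 DAP. The next ID after Tannin2, Sobic.002G076700, was listed above 0 only at 0-2 DAP, at 0.0442 TPM. The ID before it, Sobic.002G076500, was between 6.73 and 52.5 TPM in all stages.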

How the data were processed

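The authors deposited a single table of TPM values, per the file headers, with 1 column for each of the 5 stages. The way the 14 libraries were combined into these columns is not stated. Neither genome build nor annotation is given in the sources used here. HISAT2, featureCounts 2.2.0 and DESeq2 are named, without roles, in the submitters' processing notes. RNA was extracted with Trizol, and stranded kits of 2 makers are named without saying which library used which, per the labels' protocols.

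The members and lists were chosen with earlier results of these data known. Stages were compared on the log2(TPM + 1) scale in the 24404 genes that reached 1 TPM at some stage; that scale understates differences of low genes. With 1 value per stage no test, blocked fit or left-out replicate was possible. The named genes are the members, the 3 nearest courses to each (mean log2(TPM + 1) within 1 of the member), and the 5 IDs on each side. The planned list of flavonoid pathway genes needed gene descriptions and was not used, since 0 of the 31337 IDs matched the reference gene table. The settings varied were the pseudocount (0.1 and 5), the filter (none and 5 TPM) and the scaling: median-ratio factors (from 0.411 at 30 DAP to 1.89 at 0-2 DAP), quantile normalization, or leaving out the 100 genes of highest mean TPM. The code was tested on simulated data. Read depth behind the TPM values is unknown, so no counting interval is given. Python 3.11.15, numpy 2.4.6, pandas 2.3.3 and matplotlib 3.10.9 were used.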

Additional observations from a re-analysis of the deposited data

How the results depend on the processing

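No paired analysis was possible because each stage is a single deposited column, and leaving out replicates was not run for the same reason. A value is listed when it moved by at least 1.5 times in fold, or a count by more than 1.5 times. Of 35 recomputed log2 differences of the members 9 moved, 7 of Tannin1 and 2 of Tannin2. For Tannin1 these were 0.54 under median-ratio factors and 0.52 under quantile normalization at 10 against 0-2 DAP, 0.23 and 0.26 at 30 against 20 DAP, and 1.39, 1.37 and, with the top 100 removed, 0.087 at 30 DAP against 1-2 DBP. For Tannin2 they were -0.45 and -0.56 at 10 against 0-2 DAP. In 11 of the 35 the sign changed, all of Tannin1 and none past 2-fold as deposited. Of the 3 IDs nearest to Tannin1, 0 recurred with a pseudocount of 5 and 1 under median-ratio factors, and of those nearest to Tannin2, 0 recurred with a pseudocount of 0.1 and 1 each with a pseudocount of 5, under quantile normalization and with the top 100 removed. With Pearson's correlation 0 recurred for either gene. The within-stage ratios moved by less under all settings tried. Among genes of at least 1 TPM, an alternative chosen after seeing the data, the positions that moved were 30.5% and 45.5% for Tannin1 at 1-2 DBP and 30 DAP and 11.5%, 29.5% and 16.3% for Tannin2 in its first 3 stages.

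With a pseudocount of 0.1, 3372 genes were higher at 0-2 DAP than 1-2 DBP, and 1598 higher and 6999 lower at 20 than 10 DAP. A pseudocount of 5 gave 1013 higher and 862 lower at 0-2 DAP, 1673 and 6170 at 10 DAP, 554 and 2155 at 20 DAP, 1431 and 3094 at 30 DAP, each against the stage before, and 1151 were higher at 30 DAP than 1-2 DBP. Under median-ratio factors the counts were 4816 and 3756 at 10 DAP, 1955 and 2144 at 20 DAP, 4569 higher at 30 DAP, and 6007 and 6355 for the ends. Under quantile normalization they were 4373 and 4823, 1973 and 2207, 4201 and 4120, and 5261 and 6224. With the top 100 removed they were 1775 and 2937 at 20 DAP. The filters moved no count. Both rescalings centre most genes by design and pseudocounts act on low genes; the cause of single moves was not tested.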
